A study of Mus musculus with 9 samples.

Results

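The G1 cyclins, their kinases and the CDK inhibitors were examined in 3 subsets of mouse splenic B cells. The set was defined by name as 10 genes: the D cyclins Ccnd2 and Ccnd3, the kinases Cdk4 and Cdk6, the E cyclins Ccne1 and Ccne2, and the inhibitors Cdkn1a, Cdkn1b, Cdkn2c and Cdkn2d. All 10 were found among the 23954 gene symbols of the deposited table, on 11 rows, since Cdkn2d has 2 rows that differ only in FO replicate 1. Among them the largest differences were in Ccnd2 and Cdk6, which were highest in BDL, and in Cdkn2d and Cdkn1a, which were lowest in MZ B cells. Cdkn1a was scarce, and it was kept for testing only through its level in FO B cells.

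Passage through G1 depends on D cyclins, which bind Cdk4 or Cdk6 and start the phosphorylation of the retinoblastoma protein, and on E cyclins, which act later with Cdk2. The INK4 inhibitors, here p18 (Cdkn2c) and p19 (Cdkn2d), bind Cdk4 and Cdk6 and keep D cyclins away from them. The Cip/Kip inhibitors p21 (Cdkn1a) and p27 (Cdkn1b) bind whole cyclin-CDK complexes. In B cells, Ccnd2 is the D cyclin known for its induction by the antigen receptor, and p27 is a marker of resting lymphocytes.

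Each subset was represented by 3 libraries, 1 from each of 3 sort dates, with spleens of 5 untreated mice aged 8 to 10 weeks pooled for a sort. Libraries of the same date carry the same replicate number. The names of all FO libraries in the deposited data end in the letter G, and those of BDL and MZ libraries do not. The labels do not explain this letter, and whatever it stands for cannot be told apart from the FO subset. The shared gate of FO B cells and BDL was B220+, IgM int, CD21 int, CD23+ and CD93-, and they were split into IgD high (FO) and IgD low (BDL). MZ B cells were sorted as B220+, IgM hi, CD21 hi, CD23- and CD93-. The sample labels give the strain as C57/BL6, whereas the study describes the sequenced cells as coming from B10.PL mice. The pooled mice are not described further, so whether the libraries of one date came from the same animals is unknown, and p-values measure the spread between pools.

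Of the genes behind the gates, CD23 and CD21 separated MZ B cells from the other subsets, and IgD, which separates BDL from FO B cells, was not analysed here. Fcer2a (CD23) averaged 496 ± 45.1 FPKM (SD, n = 3) in the FO libraries, 427 ± 44.1 in BDL and 29.6 ± 4.34 in MZ B cells. Cr2 (CD21) had 141 ± 7.57, 107 ± 8.69 and 454 ± 52.7 FPKM in the same order. Cd93 was between 10.2 and 15.9 FPKM in BDL and between 3.10 and 5.29 FPKM in FO B cells, although both were sorted as CD93-. By flow cytometry, the study found CD93 on the surface highest in BDL among these subsets and described BDL as CD93 int. The 6 pan-B cell genes of a marker list summed to between 3131 and 4608 FPKM in every library. Depth, estimated from the steps between low values, lay between 0.910 and 1.23 times that of FO replicate 1.

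FPKM, the number of fragments per kilobase of transcript scaled to the mapped fragments of a library, is a level per length, so levels of different genes can be compared. Differences were tested on log2(FPKM + 0.1) with limma over the 11597 rows whose mean reached 0.5 FPKM, which kept 9 of the 10 genes and left out Ccne2. A gene is said to rise or fall where the Benjamini-Hochberg adjusted p was under 0.05, and fold changes are on the log2(FPKM + 0.1) scale. Exact permutation tests over 3 libraries against 3 cannot go below p = 0.1, so non-overlap is given as a description only.

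Between BDL and FO B cells, 4 of the 9 tested genes rose in BDL (Ccnd2, Cdk6, Cdkn2c and Cdk4) and 0 fell, where 6.04% of all rows tested rose and 1.68% fell. Ccnd2 and Cdk6 also changed by at least 2-fold, as did 1.91% of all rows in either direction. The median log2 fold change of the 9 genes was 0.34 and that of all rows 0.05. The values of 6 of the 9 genes did not overlap between the subsets, compared with 34.8% of all rows. With the sort date as a block 6 genes passed, Ccnd3 also as higher and Cdkn1a as lower. The block also raised the number of all rows passing from 896 to 2378 of 11597, with 1806 higher and 572 lower. Between BDL and MZ B cells, 4 genes were higher in BDL (Ccnd2, Cdk6, Ccnd3 and Cdkn2d) and 0 lower, with 16.5% of all rows higher and 11.6% lower. Ccnd2, Cdk6 and Cdkn2d reached 2-fold, compared with 7.8% of all rows, and 4 genes did not overlap, compared with 38.9% of rows. Between MZ and FO B cells, Ccnd2 and Cdk4 were higher in MZ and Cdkn1a and Cdkn2d lower, with 14.3% of all rows higher and 12.8% lower. Cdkn1a and Cdkn2d reached 2-fold, compared with 8.92% of all rows, and 6 genes did not overlap, compared with 46.1% of rows. Cdkn1a passed the minimum only through FO B cells, so its place in these counts is no support for them. The comparisons share libraries and are not independent of each other. The genes were chosen with earlier results of these data known. Their counts beside the shares of all rows are therefore a description and not a test of the set.

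**Figure D1:**
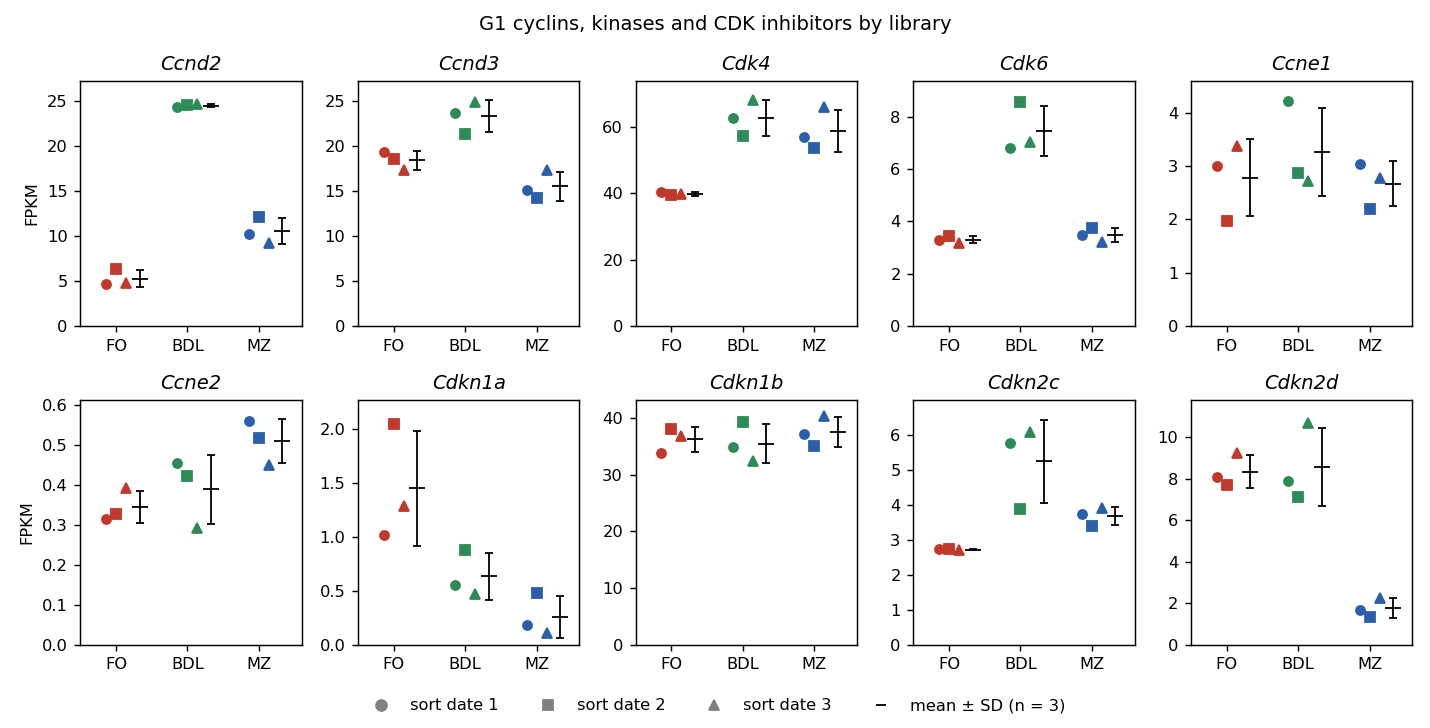
FPKM of the 10 genes (y axes from 0) in the 9 libraries of FO, BDL and MZ B cells (x axes), with symbols for the 3 sort dates and black bars for the mean and SD of 3 libraries. The 3 BDL libraries lie between 24.3 and 24.6 FPKM for Ccnd2, above all others, and the 3 MZ libraries lie under 2.3 FPKM for Cdkn2d (row 1 is drawn).

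Ccnd2, which encodes cyclin D2 (NCBIM37, chromosome 6, 127075797 to 127101066), gave the largest difference between BDL and FO B cells among the 9 tested genes. Its FPKM was 4.70, 6.32 and 4.78 in FO replicates 1 to 3, 24.3, 24.6 and 24.6 in BDL and 10.2, 12.1 and 9.23 in MZ B cells. No value of one subset overlapped with another, and the BDL libraries differed from each other by less than those of the other subsets. Ccnd2 was 4.63-fold higher in BDL than in FO B cells (log2 fold change 2.21, standard error 0.135, adjusted p = 1.36e-04 from limma). It was 2.33-fold higher in BDL than in MZ B cells (log2 fold change 1.22, standard error 0.135, adjusted p = 3.26e-04) and 1.98-fold higher in MZ than in FO B cells (adjusted p = 9.61e-04). Each of these differences passed in all 19 alternative settings.

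Ccnd3, which encodes cyclin D3 (chromosome 17, 47642000 to 47736632), varied less. It had 19.4, 18.5 and 17.3 FPKM in FO, 23.6, 21.4 and 24.9 in BDL and 15.1, 14.2 and 17.3 in MZ replicates 1 to 3. The order was BDL, FO and MZ, with FO replicate 3 and MZ replicate 3 nearly touching. Ccnd3 was 1.5-fold higher in BDL than in MZ B cells (log2 fold change 0.59, standard error 0.0987, adjusted p = 0.00314 from limma). BDL over FO B cells gave a ratio of 1.26 (95% interval 1.08 to 1.48) and missed the threshold (adjusted p = 0.0773). With the sort date as a block the adjusted p was 0.0421, and without MZ replicate 3 it was 0.0479. The ratio of MZ to FO B cells was 0.843 (interval 0.721 to 0.987, adjusted p = 0.105), and its adjusted p was 0.0407 without MZ replicate 3. The exons of Ccnd3 overlap with those of Bysl on the opposite strand, which did not pass in any comparison.

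Together the D cyclins summed to 23.7 ± 1.4 FPKM (SD, n = 3) in FO, 47.8 ± 1.82 in BDL and 26.0 ± 0.631 in MZ B cells. Ccnd2 made up 19.5% to 25.4% of this sum of RNA levels in FO, 49.7% to 53.5% in BDL and 34.8% to 46.0% in MZ B cells. MZ and FO B cells thus had close sums with different shares, whereas BDL had a larger sum and near-equal shares. The sums of FO (22.1 to 24.8 FPKM) and MZ B cells (25.3 to 26.5 FPKM) did not overlap. These sums carry no test. Ccnd1, the third D cyclin, stayed between 0.478 and 0.877 FPKM in all 9 libraries and passed in no comparison.

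**Figure D2:**
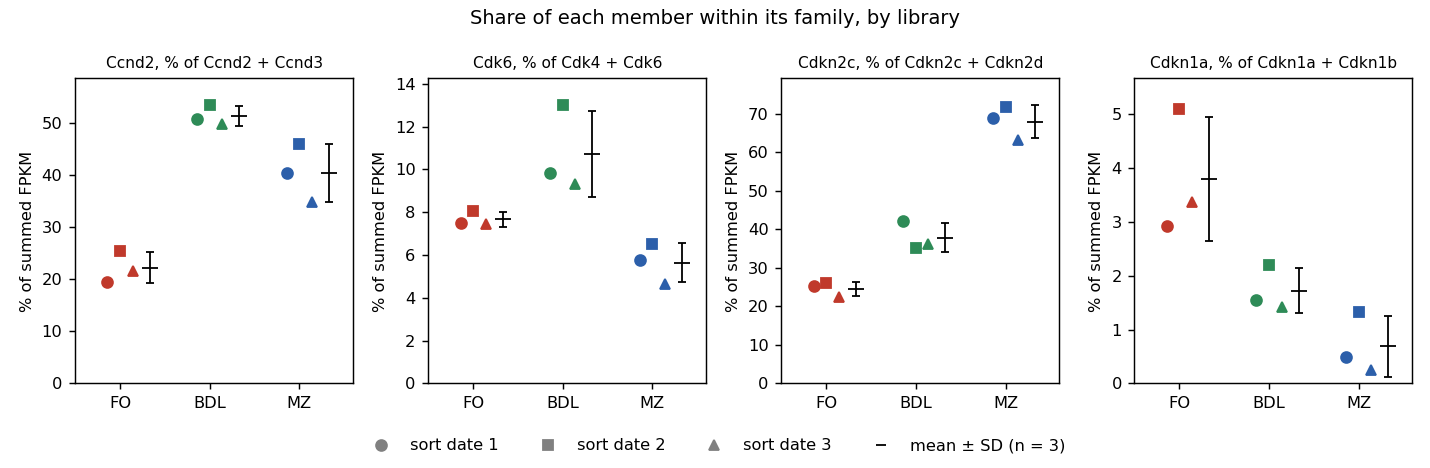
Share of one gene in the summed FPKM of its pair (y axes, in %, from 0) for FO, BDL and MZ libraries (x axes), with symbols for the sort dates and black bars for the mean and SD of 3 libraries. The Cdkn2c share lies between 22.5% and 26.1% in FO and between 63.3% and 71.7% in MZ B cells, and the Cdkn1a share is lowest in MZ B cells.

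Cdk4 (chromosome 10, 126500590 to 126504976) and Cdk6 (chromosome 5, 3343893 to 3523218) encode the kinases that D cyclins activate. Cdk4 was the more abundant, with 40.2, 39.3 and 39.7 FPKM in FO, 62.6, 57.1 and 68.2 in BDL and 56.9, 53.7 and 65.9 in MZ replicates 1 to 3. Both BDL and MZ B cells lay above FO B cells without overlap, and they overlapped with each other. Cdk4 rose 1.57-fold in BDL (log2 fold change 0.65, standard error 0.101, adjusted p = 0.00821 from limma) and 1.47-fold in MZ B cells (0.56, standard error 0.101, adjusted p = 0.00413) compared with FO B cells. For BDL over MZ B cells it was 1.07-fold, with a 95% interval of 0.907 to 1.25 (adjusted p = 0.542). Exons of Cdk4 overlap with Tspan31 on the opposite strand, and the labels describe reads without strand, whereas the methods name a stranded kit. Tspan31 was 14.3 FPKM on average in FO, 13.5 in BDL and 29.5 in MZ B cells, so it moved with Cdk4 in MZ B cells (adjusted p = 0.00103) and not in BDL (adjusted p = 0.735). Its part in the Cdk4 values was not tested.

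Cdk6 had 3.27, 3.44 and 3.19 FPKM in FO, 6.81, 8.56 and 7.01 in BDL and 3.48, 3.74 and 3.23 in MZ replicates 1 to 3. The BDL libraries stood apart, and those of FO and MZ B cells overlapped. Exons of Cdk6 overlap with Gm17590 on the opposite strand, which was not analysed here. Cdk6 was 2.21-fold higher in BDL than in FO B cells (log2 fold change 1.15, standard error 0.105, adjusted p = 8.22e-04 from limma) and 2.1-fold higher than in MZ B cells (1.07, standard error 0.105, adjusted p = 1.64e-04). The ratio of MZ to FO B cells was 1.05, with an interval of 0.891 to 1.24 (adjusted p = 0.656). Cdk6 was thus raised in BDL compared with both other subsets, whereas Cdk4 was lower in FO B cells than in both. Of the summed FPKM of the kinases, Cdk6 held 7.43% to 8.05% in FO, 9.33% to 13.0% in BDL and 4.67% to 6.52% in MZ B cells.

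Promoter windows of RefSeq (build GRCm38.p6, 250 bases before to 50 after a start site) were found for 8 of the 10 genes, all but Ccnd2 and Ccne2, in 11 windows. The 250 bases upstream of the Cdk4 and Cdk6 starts are shown because both kinases rose in BDL and both windows hold an E-box. Capitals mark the E-box CACGTG, the site bound by Myc and related factors.

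Cdk4, chr10:127063285-127063534, plus strand: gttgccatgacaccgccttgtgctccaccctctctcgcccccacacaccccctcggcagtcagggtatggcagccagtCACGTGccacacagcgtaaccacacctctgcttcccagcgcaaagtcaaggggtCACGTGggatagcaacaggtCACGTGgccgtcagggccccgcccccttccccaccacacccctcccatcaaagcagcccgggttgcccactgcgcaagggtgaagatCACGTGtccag

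Cdk6, chr5:3343643-3343892, plus strand: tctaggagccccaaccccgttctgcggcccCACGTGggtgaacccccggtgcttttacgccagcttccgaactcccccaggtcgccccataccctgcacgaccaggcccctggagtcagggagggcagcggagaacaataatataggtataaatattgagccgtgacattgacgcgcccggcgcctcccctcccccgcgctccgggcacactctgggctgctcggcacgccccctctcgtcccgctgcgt

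Among all 32851 windows, searched on both strands, 7.15% held at least 1 E-box and 0.0244% held 4 or more. The Cdk4 window held 4, which begin at -172, -118, -98 and -11 from the start, and the Cdk6 window held 1, at -220. The third gene with an E-box was Cdkn2c, in its second window, at 34 bases past the start. Myc itself had 126 ± 12.8 FPKM (SD, n = 3) in FO, 106 ± 3.17 in BDL and 430 ± 77.2 in MZ B cells. Myc was thus highest in MZ B cells (log2 fold change 1.76 over FO, adjusted p = 4.15e-05 from limma), where Cdk4 was also higher than in FO B cells and Cdk6 missed the threshold. In BDL, where Cdk4 was higher as well, all 3 Myc values lay below those of FO B cells (log2 fold change -0.25, adjusted p = 0.300). The part of Myc in the Cdk4 and Cdk6 values was not tested. Matches to the E2F sites TTTCCCGC, TTTCGCGC, TTTGCCGC or TTTGGCGC, on either strand, were found in 0 of the 11 windows and in 2.26% of all windows. The GC box GGGCGG lay in 8 of the 11 windows and in 35.7% of all windows. A match describes the letters in a window and not binding.

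Ccne1 and Ccne2 encode cyclins E1 and E2, which act with Cdk2 at the end of G1. Ccne1 (chromosome 7, 38883003 to 38892553) had 3.0, 1.98 and 3.37 FPKM in FO, 4.22, 2.87 and 2.72 in BDL and 3.03, 2.20 and 2.78 in MZ replicates 1 to 3. The subsets overlapped in each comparison, and the value of replicate 2 was the lowest in FO and MZ B cells. The ratio of BDL to FO B cells was 1.18, with a 95% interval of 0.805 to 1.72 (adjusted p = 0.569 from limma), and that of MZ to FO B cells was 0.976, with an interval of 0.669 to 1.43 (adjusted p = 0.943). Ccne2 (chromosome 4, 11118498 to 11131926), at 0.315, 0.327 and 0.390 FPKM in FO, 0.453, 0.422 and 0.291 in BDL and 0.560, 0.517 and 0.449 in MZ replicates 1 to 3, lay under the minimum for testing, with approximately 56 to 98 fragments per library. MZ and FO B cells did not overlap for Ccne2. Exons of Ccne2 overlap with Ints8 on the opposite strand. Ints8 averaged 11.9 FPKM in FO, 12.8 in BDL and 11.7 in MZ B cells and passed in no comparison. The part of Ints8 in the Ccne2 values was not tested. Without the minimum the adjusted p of Ccne2 was 0.0970 for MZ over FO, 0.716 for BDL over FO and 0.218 for BDL over MZ B cells. The partner kinase Cdk2 had 22.2 ± 0.725 FPKM in FO, 19.4 ± 6.63 in BDL and 14.7 ± 2.54 in MZ B cells (SD, n = 3) and passed in no comparison. The spread in BDL came from replicate 3, at 11.7 FPKM, whereas replicates 1 and 2 had 23.2 each. For Cdk2, MZ B cells (11.8 to 16.5 FPKM) lay below FO B cells (21.4 to 22.8 FPKM) without overlap.

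Of the inhibitors, Cdkn1b (p27) was the most abundant and the most even. It had 33.8, 38.1 and 36.9 FPKM in FO, 34.9, 39.3 and 32.4 in BDL and 37.2, 35.04 and 40.4 in MZ replicates 1 to 3. All subsets overlapped. The ratio of BDL to FO B cells was 0.977, with a 95% interval of 0.835 to 1.14 (adjusted p = 0.866 from limma). The ratio of BDL to MZ B cells was 0.945, with an interval of 0.807 to 1.11 (adjusted p = 0.583), and that of MZ to FO B cells was 1.03, with an interval of 0.884 to 1.21 (adjusted p = 0.767). Cdkn1b (chromosome 6, 134870419 to 134875531) held 65.3% to 76.8% of the summed FPKM of the 4 inhibitors in BDL, 73.7% to 75.3% in FO and 86.6% to 87.1% in MZ B cells.

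Cdkn1a (p21; chromosome 17, 29227924 to 29237667), a target of p53, was scarce by comparison. It had 1.02, 2.05 and 1.29 FPKM in FO, 0.552, 0.882 and 0.465 in BDL and 0.181, 0.475 and 0.103 in MZ replicates 1 to 3. The FO libraries lay above all others, MZ replicate 2 lay just above BDL replicate 3, and replicate 2 was the highest in each subset. Compared with FO B cells, Cdkn1a was 4.68-fold lower in the MZ subset (log2 fold change -2.23, standard error 0.429, adjusted p = 0.00566 from limma). It passed the minimum through its level in FO B cells, and the MZ values rest on approximately 10 to 57 fragments. The size depended on the constant added, with a log2 fold change of -2.68 for 0.01 FPKM and -0.96, under 2-fold, for 1 FPKM, and the difference passed with both. The BDL to FO ratio was 0.477 (95% interval 0.241 to 0.944, adjusted p = 0.172), and that of BDL to MZ B cells was 2.23 (interval 1.13 to 4.41, adjusted p = 0.0797). With the sort date as a block these adjusted p-values were 0.0245 and 0.00837. The latter was also under 0.05 without MZ replicate 2, at 0.022, and after quantile normalization, at 0.0383.

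Cdkn2c (p18; chromosome 4, 109333481 to 109339794) had 2.72, 2.72 and 2.69 FPKM in FO, 5.74, 3.87 and 6.07 in BDL and 3.73, 3.38 and 3.90 in MZ replicates 1 to 3. FO B cells lay below both other subsets, and BDL replicate 2 lay just under the highest of the MZ libraries. Cdkn2c rose 1.86-fold in BDL compared with FO B cells (log2 fold change 0.90, standard error 0.159, adjusted p = 0.0148 from limma). This call was lost with the 6 libraries of these subsets alone (0.0524), without BDL replicate 1 (0.0612) and without FO replicate 1, 2 or 3 (0.0623, 0.0516 and 0.0690). The BDL to MZ ratio was 1.39 (95% interval 1.08 to 1.79, adjusted p = 0.0574) and that of MZ to FO B cells was 1.34 (interval 1.04 to 1.72, adjusted p = 0.0892). With the date block the adjusted p-values were 0.0287 and 0.0465, and without BDL replicate 2 they were 0.00280 and 0.0109. With the 6 libraries of MZ and FO B cells alone the latter was 0.0156, and quantile normalization gave 0.0462 for BDL over MZ B cells.

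Cdkn2d (p19; chromosome 9, 21092907 to 21095653) encodes the other INK4 inhibitor of the set. It had 8.09, 7.72 and 9.23 FPKM in FO, 7.89, 7.15 and 10.7 in BDL and 1.68, 1.33 and 2.26 in MZ replicates 1 to 3, and the other row gave 7.17 in FO replicate 1. FO B cells and BDL overlapped, and every MZ library was below all others. Compared with FO B cells, Cdkn2d was 4.63-fold lower in the MZ subset (log2 fold change -2.21, standard error 0.205, adjusted p = 1.07e-04 from limma), or 4.45-fold lower by the other row. It was 4.70-fold higher in BDL than in MZ B cells (log2 fold change 2.23, standard error 0.205, adjusted p = 1.19e-04). The ratio of BDL to FO B cells was 1.01, with a 95% interval of 0.732 to 1.41 (adjusted p = 0.964). The sequence upstream of its start is shown for comparison with those of the kinases, with the CCAAT box in capitals as it reads on the opposite strand.

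Cdkn2d, chr9:21291210-21291459, minus strand: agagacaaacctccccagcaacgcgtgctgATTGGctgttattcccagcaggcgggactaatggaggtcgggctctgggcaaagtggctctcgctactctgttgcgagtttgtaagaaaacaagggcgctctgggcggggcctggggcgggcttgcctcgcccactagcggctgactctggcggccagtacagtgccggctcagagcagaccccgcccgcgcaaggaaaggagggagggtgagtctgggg

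This CCAAT box begins at -220, and 37.4% of all windows hold one on either strand. The window held 0 E-boxes and 5 GC boxes.

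The INK4 pair thus differed in composition between the subsets. Cdkn2c made up 24.6% ± 1.83 (SD, n = 3) of the summed FPKM of the pair in FO, 37.8% ± 3.76 in BDL and 68.0% ± 4.26 in MZ B cells, without overlap between any 2 subsets. The sum of the pair was 11.1 ± 0.768 FPKM in FO, 13.8 ± 2.88 in BDL and 5.42 ± 0.721 in MZ B cells. The other INK4 and Cip/Kip genes were near the lower limit. Cdkn2a was listed at 0 in all FO libraries and 2 MZ libraries and at 0.0466 to 0.0928 FPKM in BDL, Cdkn2b did not exceed 0.0693 FPKM, and Cdkn1c did not exceed 0.204 FPKM in any library. The ratio of the summed D cyclins to the summed inhibitors was 0.486 ± 0.0433 in FO, 0.958 ± 0.0537 in BDL and 0.604 ± 0.0439 in MZ B cells (SD, n = 3), without overlap, and most of its denominator was Cdkn1b. The ratio of the summed D cyclins to the INK4 pair alone was 2.15 ± 0.269 in FO, 3.55 ± 0.607 in BDL and 4.86 ± 0.65 in MZ B cells, so MZ B cells were highest in it, also without overlap.

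**Figure D3:**
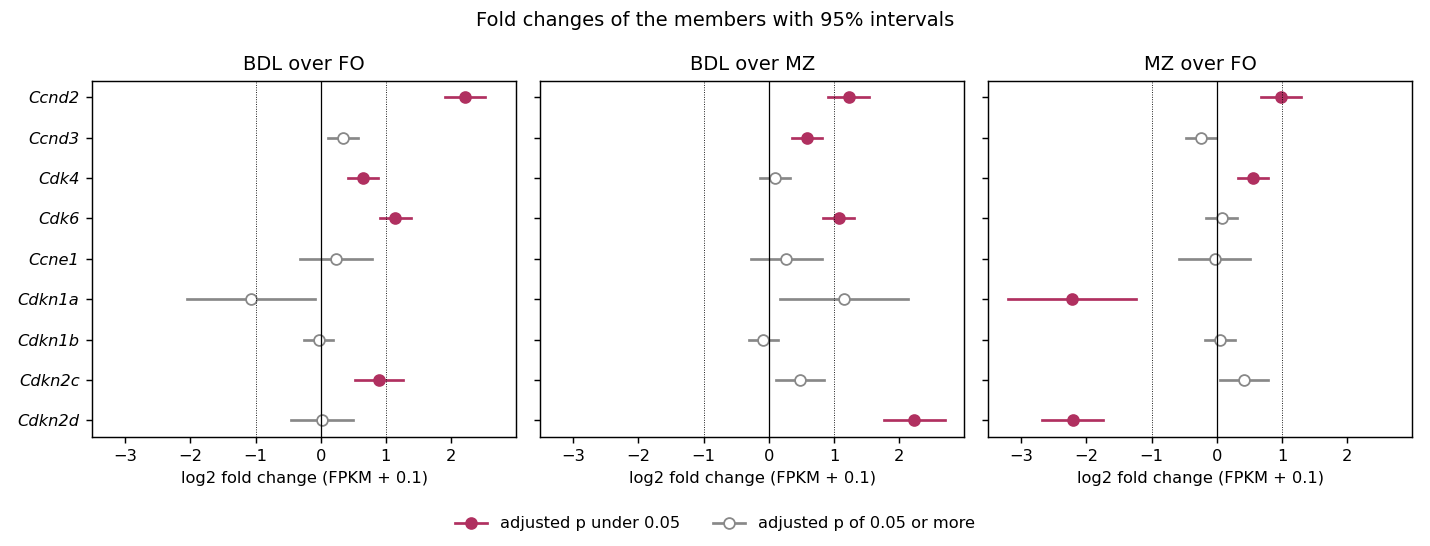
Log2 fold change on the FPKM + 0.1 scale (x axes) of the 9 tested genes (rows) for BDL over FO, BDL over MZ and MZ over FO B cells, with lines for the 95% interval from limma, filled red points for an adjusted p under 0.05, open grey points for others and dotted lines at 2-fold. Ccnd2 lies at 2.21 for BDL over FO, and Cdkn2d lies near 0 there and at -2.21 for MZ over FO B cells.

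Other genes of the G1 pathway came from a list of 58, of which 52 were tested. This list was also chosen with earlier results of these data known, so its counts are a description. In BDL compared with FO B cells 12 of these rose and 0 fell, where 6.04% and 1.68% of all rows did. Cks1b and Cks2, small subunits of CDK complexes, rose 2-fold or more, from 3.06 ± 0.0809 to 6.65 ± 0.185 FPKM (log2 fold change 1.10, adjusted p = 3.26e-04 from limma) and from 7.86 ± 1.15 to 16.3 ± 2.1 FPKM (1.04, adjusted p = 0.00363). Of the Rb and E2F genes 5 of 11 rose, among them E2f1 (0.93, adjusted p = 0.00123) and Tfdp1, the partner of E2F (0.99, adjusted p = 7.58e-04). Of the upstream factors only Mxd4, a Myc antagonist, rose (0.70, adjusted p = 0.00674).

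In BDL compared with MZ B cells, 12 of the 52 genes were higher and 7 lower, where 16.5% and 11.6% of all rows were. E2f2 (log2 fold change 1.97, adjusted p = 9.11e-06 from limma), Bcl6, a transcriptional repressor known from germinal centre B cells (1.79, adjusted p = 2.37e-05), and Usp28, a deubiquitinase (1.23, adjusted p = 2.26e-05), were higher by 2-fold or more. Myc (-2.01, adjusted p = 2.67e-05) and Smad3, which carries TGF-beta signals (-1.44, adjusted p = 1.35e-04), were lower.

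In MZ compared with FO B cells, 15 of the 52 were higher and 10 lower, where 14.3% and 12.8% of all rows were. Higher by 2-fold or more were Myc, Smad3 (1.68), Tfdp1 (1.57), Mxd4 (1.46), E2f1 (1.37), Cks2 (1.15), Cks1b (1.07), Cdc25a, the phosphatase that activates Cdk2 (1.03), and Cdkn3, a phosphatase of CDKs (1.03), with adjusted p-values from limma between 8.25e-06 for Tfdp1 and 0.0113 for Cdkn3. Lower by 2-fold or more were Bcl6 (-2.09), E2f2 (-1.20) and Klf2, a factor of lymphocyte quiescence (-1.02, adjusted p = 0.00115).

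Genes of S phase and mitosis were measured with a list of 20, of which 18 were tested. The choice of this list, too, followed earlier results of these data, so its counts are a description. In BDL compared with FO B cells 12 rose and 0 fell, with a median log2 fold change of 0.56, where 6.04% and 1.68% of all rows rose and fell. In MZ compared with FO B cells 8 rose and Mcm5 fell, where 14.3% of all rows rose and 12.8% fell. In BDL compared with MZ B cells 5 were higher and 4 lower, where 16.5% and 11.6% of all rows were. Mki67, the gene of Ki-67, had 0.513 ± 0.0602 FPKM in FO, 3.17 ± 0.159 in BDL and 4.5 ± 0.854 in MZ B cells (SD, n = 3), and Ccnb1, which encodes mitotic cyclin B1, had 0.340 ± 0.0522, 0.863 ± 0.0405 and 0.994 ± 0.131. Mcm5, part of the replicative helicase, had 9.81 ± 0.638, 12.7 ± 0.396 and 8.17 ± 0.0864 FPKM, and Pcna had 62.1 ± 7.98, 74.2 ± 5.81 and 69.2 ± 4.58. Mki67 and Ccnb1 were thus lowest in FO B cells, as were Ccnd2 and Cdk4, whereas Mcm5 was lowest in MZ B cells and Pcna passed in no comparison. Their part in the differences of the G1 genes was not tested. In bulk RNA, fewer cells of a type and less RNA per cell cannot be told apart.

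**Figure D4:**
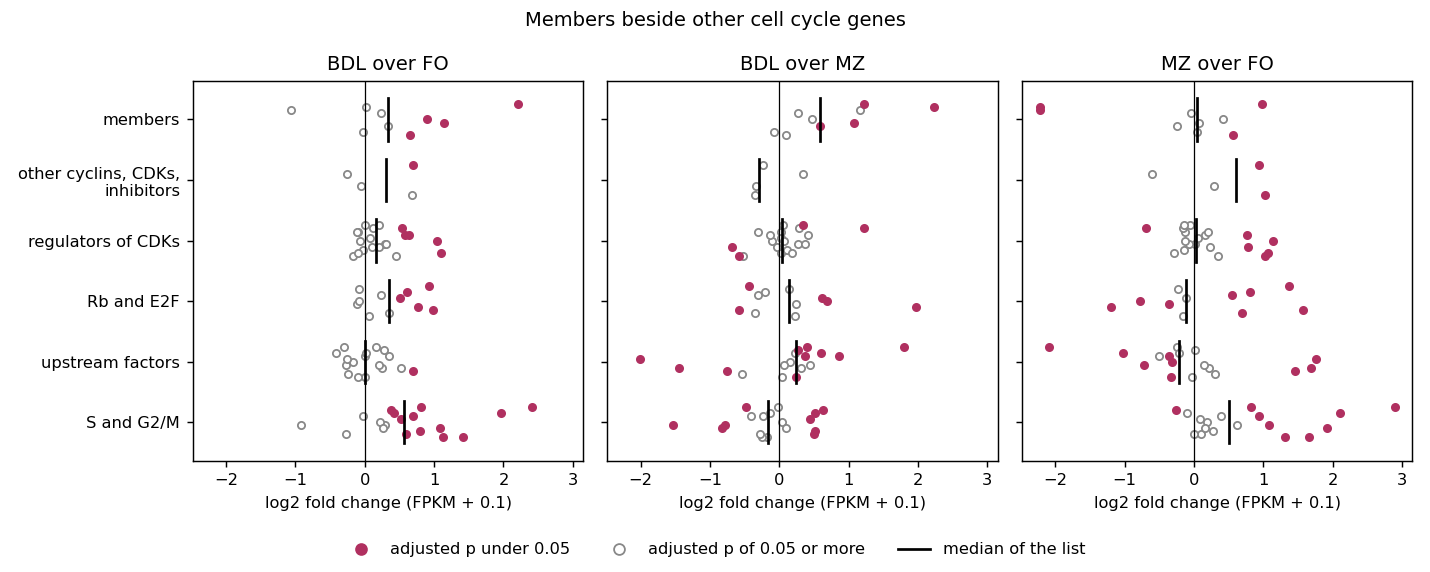
Log2 fold change on the FPKM + 0.1 scale (x axes) of the tested genes of 6 lists (rows, points spread vertically for display) for BDL over FO, BDL over MZ and MZ over FO B cells, with red points for an adjusted p under 0.05, open grey points for others and black lines for list medians. In BDL over FO B cells 12 of 18 genes of S and G2/M phase are red, all to the right of 0.

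Markers of other cells were also summed. The T cell list, with 7 of 8 genes in the table, summed to 9.67 to 11.1 FPKM in FO, 18.9 to 23.7 in BDL and 7.51 to 13.1 in MZ B cells. Most of this was Lck, at 20.3 ± 2.28 FPKM in BDL and 9.06 ± 0.576 in FO B cells, whereas Cd3e averaged 0.152, 0.198 and 0.182 FPKM in FO, BDL and MZ B cells. The 7 erythroid genes summed to 1.98 to 4.31, 7.05 to 8.10 and 3.10 to 5.63 FPKM, mostly from Hbb-b1. The 6 B1 cell genes summed to 11.4 to 14.3, 22.4 to 26.7 and 14.9 to 23.5 FPKM, and the 6 transitional B cell genes to 306 to 368, 474 to 702 and 364 to 464 FPKM. Zcwpw1, the largest B1 gene, averaged lowest in BDL (5.49, 4.66 and 6.03 FPKM), and Bhlhe41, the next, highest there (1.80, 5.95 and 3.68). Cd24a, the largest transitional gene, overlapped between BDL (332 to 534 FPKM) and MZ B cells (341 to 439 FPKM). Vpreb3 and Myb, the next, averaged highest in BDL. The T cell, erythroid and transitional sums were highest in BDL without overlap, as were Ccnd2 and Cdk6, whereas the B1 sums of BDL overlapped with those of MZ B cells. Their part in those values was not tested. Plasma cell genes, with 7 of 8 in the table and Irf4 and Mzb1 leading, summed to 284 to 329, 280 to 323 and 522 to 608 FPKM, and the 7 germinal centre genes to 31.7 to 37.9, 32.8 to 35.5 and 10.0 to 11.9 FPKM. Myeloid genes, 8 of 9 in the table, gave 7.59 to 15.1, 9.56 to 18.4 and 12.6 to 23.5 FPKM, and the 6 NK cell genes 2.70 to 7.83, 3.45 to 7.13 and 7.21 to 12.9 FPKM. The 6 MZ genes summed to 204 to 214, 188 to 205 and 946 to 1106 FPKM and the 5 FO genes to 1564 to 1667, 1291 to 1586 and 435 to 565 FPKM.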

How the data were processed

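RNA was sequenced from 9 libraries of sorted splenic FO, BDL and MZ B cells. The authors aligned the reads to mm9 with TopHat2 2.1.0 and computed gene FPKM with Cufflinks, and the FPKM were used as deposited. The Cufflinks version and the gene annotation are not given in the sources used here. The table has 24459 rows. Repeated symbols were kept as separate rows. Of 271 of them, 94 differ between their rows in FO replicate 1 only.

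Values were analysed as log2(FPKM + 0.1). Rows whose mean reached 0.5 FPKM were fitted with limma 3.58.1 in R 4.3.3 (eBayes with a trend, subset as the only term, all 9 libraries) and adjusted by the Benjamini-Hochberg method. In data simulated for BDL over FO with 11597 genes, 33.5%, 75.5% and 90.5% of 200 genes changed by 0.6, 1 and 1.5 (log2) passed. Of the unchanged genes 4, 9 and 9 passed. Only these 200 genes were changed, all upward in BDL, and the noise was independent between genes. The shares may therefore differ in the real data.

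Low FPKM of long genes with a single transcript lie on regular steps, whose size gave 0.0138 to 0.0187 FPKM for 1 fragment per kb, with 74.0% to 78.5% of low values within 0.1 of a whole number (20% by chance). Fragment numbers are approximate and cover counting error only.

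Sort dates, read from the sample titles, pair the libraries. Deviations from the subset mean correlated across genes at -0.0623 to 0.147 for BDL and FO, 0.1 to 0.244 for BDL and MZ, and 0.0077 to 0.0238 for MZ and FO libraries of one date.

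Gene positions and overlaps are from GENCODE M1 on NCBIM37 (mm9), promoters from RefSeq. The genes and lists were chosen with earlier results of these data known. The text names all 10 genes, genes of the pathway lists called at 2-fold, Mki67, Ccnb1, Pcna and Mcm5, and for each member called the 3 rows most like it. Ccnd1, Cdk2, Tspan31, Ints8 and the markers were named after their values were seen. Figures were drawn with matplotlib 3.10.9 in Python 3.11.15.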

Additional observations from a re-analysis of the deposited data

How the results depend on the processing

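Of 738 values recomputed under 19 alternatives (added constant, minimum, libraries in the fit, scaling, variance model, date block and each library left out), 702 kept their direction and side of the threshold or stayed within 1.5 times. Signs turned in 15, each of a log2 fold change that passed in neither setting. Upper quartile scaling and quantile normalization gave -0.015 and -0.055 for Cdk4 in BDL over MZ and -0.053 and -0.027 for Cdkn2d in BDL over FO, and quantile normalization gave -0.040 for Cdk6 in MZ over FO. With one library left out the range was -0.25 to 0.12 for Ccne1 in MZ over FO, -0.11 to 0.032 for Cdkn1b in BDL over FO, -0.0058 to 0.097 for Cdkn1b in MZ over FO, and -0.15 to 0.14 and -0.090 to 0.20 for the rows of Cdkn2d in BDL over FO. With 1 FPKM added, 1 gene reached 2-fold in BDL over FO B cells in place of 2, without Cdk6, and 1 in MZ over FO in place of 2, without Cdkn1a, and with a minimum of 1 FPKM, which removes Cdkn1a, 1 in MZ over FO. Leaving out one library gave 2 to 3 genes at 2-fold for MZ over FO and BDL over FO, and 2 to 4 for BDL over MZ. With the sort date as a replicate block, 6, 6 and 5 of the 9 genes passed for BDL over FO, BDL over MZ and MZ over FO, compared with 4 in each (Ccnd3 as higher and Cdkn1a as lower were added in the first, Cdkn1a and Cdkn2c as higher in the second and Cdkn2c as higher in the third), and 16, 28 and 27 of the other pathway genes compared with 12, 19 and 25. Over all rows, leaving out one library gave 335 (FO replicate 3) to 1111 (MZ replicate 3) passing for BDL over FO, with 340, 497, 423 and 525 without FO replicates 1 and 2 and BDL replicates 1 and 2. The block raised the number passing from 896 to 2378, from 3255 to 4952 and from 3141 to 4500. Upper quartile scaling moved the median log2 fold change of all rows in BDL over MZ from 0.06 to -0.04. Of the rows passing, 43.9% were then higher in BDL compared with 58.6%, and in BDL over FO 62.4% compared with 78.2% (64.1% after quantile normalization). The cause was not tested. Low levels limit Cdkn1a and Ccne2.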

Other observations

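The rows whose log2(FPKM + 0.1) followed each of the 4 genes called at 2-fold most closely over the 9 libraries are given as a description, since the libraries share their subsets. For Ccnd2 they were Actn1 (Pearson r = 0.987), Zfpm1 (0.985) and Car13 (0.981). For Cdk6 they were Fndc9 (0.986), Hbb-bt, a beta-globin gene (0.979), and Cplx2 (0.978). Hbb-bt averaged 1.84 FPKM in FO, 10.4 in BDL and 2.14 in MZ B cells. For Cdkn2d they were Gga2 (0.997), Cnn3 (0.997) and Lsp1 (0.996), each lower in MZ B cells, as with Cnn3 at 115 FPKM in FO, 109 in BDL and 40.8 in MZ B cells. For Cdkn1a they were Rgcc (0.982), Safb (0.971) and Eif2ak3 (0.970). Rgcc, a regulator of the cell cycle, averaged 5.69 FPKM in FO, 2.85 in BDL and 0.854 in MZ B cells.

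Of 16 listed p53 targets 13 were tested. The p53 and quiescence lists were chosen with earlier results of these data known, so their counts are a description. In MZ compared with FO B cells, where 14.3% of all rows were higher and 12.8% lower, 4 were higher, with Bbc3 (log2 fold change 1.42, adjusted p = 1.24e-04 from limma) and Sesn2 (1.05, adjusted p = 0.00399) at 2-fold or more, and 2 were lower. In BDL compared with MZ B cells, where 16.5% of all rows were higher and 11.6% lower, 1 was higher and 6 lower, with Sesn2 (-1.43), Gadd45a (-1.41), Pmaip1 (-1.21) and Zmat3 (-1.04) at 2-fold or more. In BDL compared with FO B cells, where these shares were 6.04% and 1.68%, 2 were higher and 0 lower. Of 14 quiescence genes, to be read against the same shares, 1 was higher and 5 lower in the MZ subset relative to FO B cells, 4 were higher and 1 lower in BDL than in MZ B cells, and 1 was higher in BDL than in FO B cells. Slfn2 was higher in BDL than in MZ B cells (1.64, adjusted p = 0.0102) and lower in the MZ subset relative to FO B cells (-1.21, adjusted p = 0.0365).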
